A study of Mus musculus with 9 samples.

Results

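The regions described here are the accessible regions of prosensory cells that lie far from the start site of any protein-coding gene. Prosensory cells are the embryonic cells of the cochlear duct that express the transcription factor Sox2 and give rise to the hair cells and supporting cells of the organ of Corti. Peaks of all 9 deposited lists were merged on the 19 autosomes wherever they lay within 100 bp of each other, which gave 68078 regions, and 35742 of them held a peak in at least 3 of the 6 lists from Sox2-EGFP+ cells. Of these, 3876 regions (10.8%) were selected on those measured peaks and on their place, with the centre over 100 kb from every start site of a protein-coding transcript (GENCODE vM1, mouse build mm9), and they are called members below. Presence in Sox2-EGFP+ lists and the distance chose the members, so neither is a finding about them.

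Chromatin accessibility was measured by ATAC-seq, in which a transposase inserts sequencing adapters where DNA is free of nucleosomes, so that a peak of insertions marks an open promoter, enhancer or insulator. Cells were sorted from cochlear ducts of mice of the strain B6;129S-Sox2tm2Hoch/J, heterozygous for EGFP placed in the Sox2 locus, and the same knock-in was carried by every group. Sox2-EGFP+ cells had 2 samples each at embryonic day 12 (E12), E14.5 and E16, while Sox2-EGFP- cells had 1 sample at E14.5 and 2 at E16, with none at E12. Each sample pooled the ducts of a litter, cells of low EGFP signal were left out of the sort, and the Sox2-EGFP- cells may hold otic fibroblasts beside nonsensory epithelium. The samples were grouped by their titles, because a second label on 3 of the 4 E16 samples named the other cell type. By the marker genes listed for this work, a peak lay within 1 kb of a start site of all 7 genes of cochlear epithelium (among them Epcam and Cdh1) in each E14.5 and E16 Sox2-EGFP+ list, of 5 and 3 of 7 in the short E12 lists and of 2 or 3 of 7 in the Sox2-EGFP- lists. All 6 autosomal genes of otic mesenchyme had such a peak in every Sox2-EGFP- list, against 1 to 5 in the Sox2-EGFP+ lists, no macrophage gene had one in any list, and the counts were 1 to 5 of 5 for genes of neurons, 0 to 3 of 5 for endothelial cells and 0 to 4 of 4 for glia. Of 10 prosensory and supporting cell genes, the Sox2-EGFP+ lists had such a peak at 8 and 6 at E12, 10 and 9 at E14.5 and 10 and 10 at E16. All 3 Sox2-EGFP- lists had one at 10 of 10, so a promoter peak at these genes did not separate the sorted cells. The part of other cell types in the results was not tested.

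Regulatory DNA that acts on a gene from a distance is common around genes that control development. Such genes often stand next to gene deserts, long stretches without protein-coding genes in which enhancers for different tissues and stages lie scattered. An enhancer is bound through short sequence motifs, and in the developing ear Eya1, Sox2 and Gata3 are known regulators of sensory development. Grhl proteins act in epithelia, Pou3f4 and forkhead factors are known in the mesenchyme that surrounds the duct, and Ctcf marks insulators and the anchors of chromatin loops.

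The files give peaks and no reads. The read totals that the study lists for its samples were not used here, so the lists are described by their length, which is not a measure of depth. The Sox2-EGFP+ lists ran from 7577 peaks (E12 replicate 2) to 66332 (E14.5 replicate 1), and the Sox2-EGFP- lists from 23302 to 23899. The 2 long lists, E14.5 replicate 1 and E16 replicate 2, held 99.4% of the members jointly, and the E16 replicate 1 list held 88.5%. The E14.5 replicate 2 list held 46.0% of members, E12 replicate 1 18.7% and E12 replicate 2 9.96%. Membership of nearly all regions therefore rests on the 2 long lists plus at least 1 other. Without E14.5 replicate 1, and with 3 of the other 5 lists required, the rule found 1634 members. It found 1655 without E16 replicate 2 and 2036 without E16 replicate 1. Leaving out either E12 list or E14.5 replicate 2 left 3583 to 3823 members.

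Members with a peak in exactly 3 Sox2-EGFP+ samples numbered 2240, those with 4 numbered 1031, those with 5 numbered 422 and those with all 6 numbered 183. A peak in all 6 samples was thus seen at 4.72% of members, while 15.7% of all regions with 3 or more had one, a background that includes promoters. Among regions 10 to 100 kb from a start site the share was 5.10%, so members were close to these. A Sox2-EGFP+ peak at E12 was present at 903 members and absent at 2973, and in the short E12 lists a closed region and a missed one cannot be told apart. Just inside the distance limit lay members at 100001, 100045 and 100053 bp from a start site, and just outside it regions at 100000, 99992 and 99991 bp. Just outside the limit on samples lay 6641 regions over 100 kb away with a peak in 2 Sox2-EGFP+ samples.

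The best ranked members without a Sox2-EGFP- peak are shown first, because they were listed at every stage. They had a peak in all 6 Sox2-EGFP+ lists and in no Sox2-EGFP- list and the best mean rank of −log10 p over the 6 lists, and 4 are given. Each sequence is 300 bases of mm9, plus strand, around the summit of its best ranked Sox2-EGFP+ peak, with capitals where any of 13 motifs described further on was matched.

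Nck2 to 1500015O10Rik, chr1:43640517-43640816: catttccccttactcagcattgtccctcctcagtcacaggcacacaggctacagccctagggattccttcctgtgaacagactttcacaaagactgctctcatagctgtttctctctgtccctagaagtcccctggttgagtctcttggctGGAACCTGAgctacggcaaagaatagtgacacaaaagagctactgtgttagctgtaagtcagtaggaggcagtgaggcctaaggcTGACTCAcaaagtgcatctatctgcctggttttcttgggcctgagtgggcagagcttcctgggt
Lmx1a, chr1:169808112-169808411: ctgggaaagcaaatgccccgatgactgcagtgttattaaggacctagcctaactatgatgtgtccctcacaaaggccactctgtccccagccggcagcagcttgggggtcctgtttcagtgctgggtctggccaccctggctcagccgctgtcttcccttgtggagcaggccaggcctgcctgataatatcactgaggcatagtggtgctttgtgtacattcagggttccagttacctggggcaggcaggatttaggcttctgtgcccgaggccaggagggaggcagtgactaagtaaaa
Fam19a2 to Slc16a7, chr10:124241211-124241510: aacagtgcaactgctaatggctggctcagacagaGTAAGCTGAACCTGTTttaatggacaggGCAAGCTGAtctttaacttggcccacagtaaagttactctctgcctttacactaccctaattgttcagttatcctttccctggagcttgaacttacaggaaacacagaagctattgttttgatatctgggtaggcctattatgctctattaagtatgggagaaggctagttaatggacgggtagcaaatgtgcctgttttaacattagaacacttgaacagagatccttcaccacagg
Sox9 to Slc39a11, chr11:113093376-113093675: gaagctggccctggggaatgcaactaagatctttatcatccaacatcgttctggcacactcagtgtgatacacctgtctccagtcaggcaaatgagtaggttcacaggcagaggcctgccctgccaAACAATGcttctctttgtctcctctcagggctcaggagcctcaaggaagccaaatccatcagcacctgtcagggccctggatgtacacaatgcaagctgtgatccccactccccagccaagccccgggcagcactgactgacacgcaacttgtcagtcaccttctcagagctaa

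The first of these lay 138 kb downstream of the nearest start site of Nck2, an adaptor protein of receptor tyrosine kinase signalling. Its fold enrichment, the pile-up at the summit over the local background in the same sample, was 12.04 and 7.43 at E12, 15.98 and 8.19 at E14.5 and 12.1 and 12.8 at E16 (replicates 1 and 2). The second lay 189 kb downstream of Lmx1a, a LIM-homeodomain factor needed for the shape of the cochlear duct, with 11.8 and 5.56 at E12, 11.4 and 8.22 at E14.5 and 11.2 and 10.1 at E16. Both were present at every stage, with the lower E12 value in replicate 2, the shortest list.

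The third was 504 kb downstream of Slc16a7, a monocarboxylate transporter, and it carried 2 SIX-type matches and 1 GRHL match. Its fold enrichment was 8.05 and 10.99 at E12, 14.6 and 9.07 at E14.5 and 12.4 and 12.1 at E16. The fourth stood in the desert between Sox9, a Sox factor of the otic epithelium, and Slc39a11, a zinc transporter, at 334 kb from the Slc39a11 start site, and its single match was to the SOX core. Here the fold enrichment was 9.57 and 8.04 at E12, 15.02 and 6.42 at E14.5 and 9.23 and 14.6 at E16.

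Fold enrichment is scaled within a sample, so the values show presence in each list and not a change between stages. None of the 32-base words of these 4 windows recurred elsewhere in the assembly.

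Members with a peak in all 9 lists are set against them, chosen among these by the best mean rank over the 6 Sox2-EGFP+ lists, so that a good Sox2-EGFP+ rank was fixed by the choice. One of these 4 is on a chromosome from which no sequence is shown.

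Pxmp3 to 1700008P02Rik, chr3:5860496-5860795: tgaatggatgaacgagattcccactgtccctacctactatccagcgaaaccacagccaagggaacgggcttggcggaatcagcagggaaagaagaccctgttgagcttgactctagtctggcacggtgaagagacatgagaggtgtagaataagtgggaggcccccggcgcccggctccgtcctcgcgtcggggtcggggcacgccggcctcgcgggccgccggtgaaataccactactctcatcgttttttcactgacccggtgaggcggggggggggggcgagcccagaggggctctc
Gm10192 to E130114P18Rik, chr4:97132684-97132983: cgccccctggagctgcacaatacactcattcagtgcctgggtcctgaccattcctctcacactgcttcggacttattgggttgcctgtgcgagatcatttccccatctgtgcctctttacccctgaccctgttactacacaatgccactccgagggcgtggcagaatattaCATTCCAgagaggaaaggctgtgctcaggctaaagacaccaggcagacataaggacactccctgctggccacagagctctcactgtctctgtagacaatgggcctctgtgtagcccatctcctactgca
Tssc1 to Myt1l, chr12:29975876-29976175: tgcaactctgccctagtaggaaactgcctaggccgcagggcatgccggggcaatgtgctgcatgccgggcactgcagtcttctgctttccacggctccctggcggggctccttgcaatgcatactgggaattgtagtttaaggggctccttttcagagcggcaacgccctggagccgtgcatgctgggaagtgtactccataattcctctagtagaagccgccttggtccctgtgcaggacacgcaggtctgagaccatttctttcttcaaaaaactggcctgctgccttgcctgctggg

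The window 284 kb from Pxmp3, a peroxisome gene, stood at rank 1 to 4 of every list, with fold enrichments of 17.5 to 23.2 in Sox2-EGFP+ and 20.2 to 25.4 in Sox2-EGFP- samples, so the ranges overlapped. Over this window 55.0% of the 32-base words recurred elsewhere in the assembly. The member between Mc2r and 4930546C10Rik had 77.3% of its words repeated, with a median of 10 copies. The member 119 kb from E130114P18Rik stood at rank 23 to 794.5 in the Sox2-EGFP+ lists with a fold enrichment of 10.95 to 13.9, and at rank 12255 to 12483 in the Sox2-EGFP- lists with 5.49 to 7.73. These ranks come from lists of unequal length and are a description. The member upstream of Myt1l, a neural zinc finger gene, ranked 130 to 1758 in the Sox2-EGFP+ and 141 to 785.5 in the Sox2-EGFP- lists, so its ranks overlapped.

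Repeated sequence was rare among the members as a whole. In 3601 of 3876 windows (92.9%) no 32-base word had a further copy in the assembly, and in 15 windows (0.387%) at least 50% of the words did. Such windows made up 3 of the 61 members with a peak in all 9 lists and none of the 113 with all 6 Sox2-EGFP+ and no Sox2-EGFP- list. No window shared a word with the mitochondrial genome.

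A peak of Sox2-EGFP- cells was absent at 3040 of 3876 members (78.4%, 95% Wilson interval 77.1 to 79.7%), compared with 49.6% of all regions with 3 or more Sox2-EGFP+ peaks at any distance. Of the others, 315 had a peak in 2 Sox2-EGFP- lists and 521 in all 3. None had a peak in 1 list, because the deposited lists keep only peaks found in more than 1 sample of a cell type. That background includes promoters. Among the 13288 regions 10 to 100 kb from a start site, the closer comparison, 72.1% lacked a Sox2-EGFP- peak. The Sox2-EGFP- lists were far shorter than the 2 long lists on which nearly all members rest. A Sox2-EGFP+ list of similar length, E14.5 replicate 2 (22962 peaks), itself held 46.0% of members. An absent Sox2-EGFP- peak may thus mark a closed region or a missed one, and these cannot be told apart.

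The share rose with distance from 71.5% at 10 to 50 kb (9754 regions) and 73.6% at 50 to 100 kb (3534 regions) to 76.7% at 100 to 200 kb (2267 regions), 80.5% at 200 to 500 kb (1376 regions) and 82.8% beyond 500 kb (233 regions). It was also higher for members among regions with equal numbers of Sox2-EGFP+ peaks. With 3 such samples 83.0% of members and 80.1% of regions at 10 to 100 kb lacked a Sox2-EGFP- peak. With 4 samples the shares were 75.3 and 65.8%, with 5 they were 69.2 and 52.8%, and with 6 they were 61.7 and 42.0%. The gap between members and nearer regions was thus widest, in percentage points, at the regions that were seen in the most samples. These shares count regions, which are not replicates, and their intervals cover counting only.

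**Figure D1:**
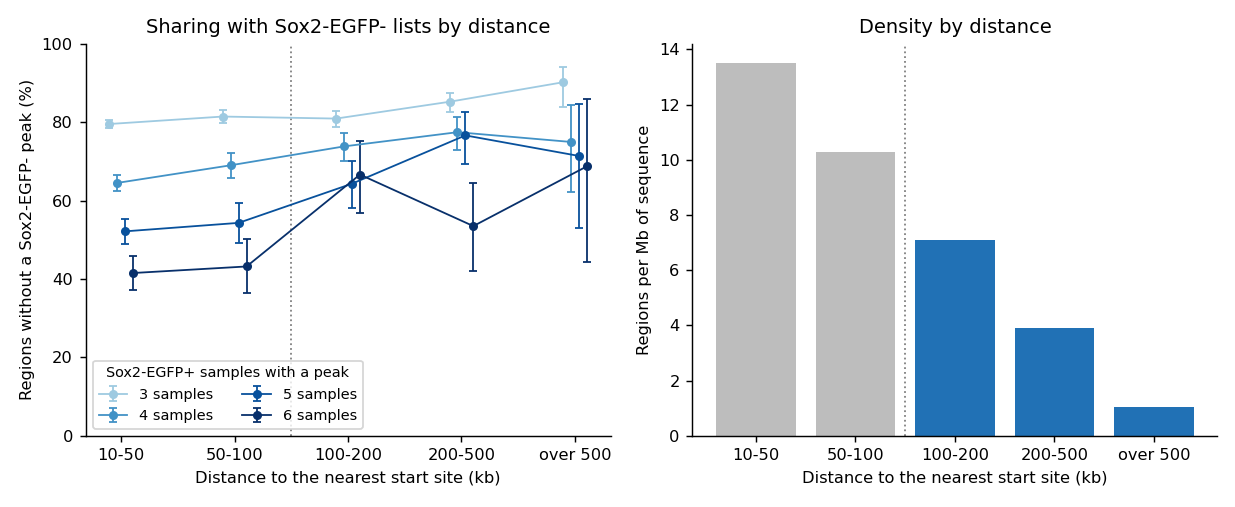
Left, the share of regions (%) without a Sox2-EGFP- peak against the distance to the nearest protein-coding start site, in lines for regions with a peak in 3, 4, 5 or 6 Sox2-EGFP+ samples; bars are 95% Wilson intervals and members lie right of the dotted line. Right, regions with 3 or more Sox2-EGFP+ peaks per Mb of sequence in the same bands, which fell from 13.5 to 1.04.

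The same comparison was made within each Sox2-EGFP+ list, so that both shares came from 1 sample. Peaks with the summit over 100 kb from a start site are called far peaks here, whether or not they belong to a member. Of far peaks 25.8 and 24.8% overlapped a Sox2-EGFP- peak in the E12 lists, 10.8 and 24.0% in the E14.5 lists and 21.8 and 10.8% in the E16 lists. Of peaks 10 to 100 kb away 41.3 and 46.6%, 15.4 and 35.7%, and 27.1 and 15.6% did. The share was lower for far peaks in 6 of 6 lists, with differences of −21.9 to −4.66 percentage points (mean −10.6 ± 7.04, SD, n = 6, two-sided exact sign-flip permutation p = 0.031, the smallest that 6 lists allow). The lists keep only peaks found in more than 1 Sox2-EGFP+ sample and were compared with the same Sox2-EGFP- peaks, so they share regions by construction, while this p and the others over samples here treat them as independent. Among peaks of like rank the mean difference was −11.2 percentage points. Both E16 replicate 1 samples were sequenced in batch 1 and the other 7 in batch 2, and within batch 2 the mean difference was −11.6 percentage points (5 lists, exact p = 0.0625, the smallest possible).

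Outside protein-coding genes lay 2720 members (70.2%), and 1156 (29.8%) lay inside one, while 48.4% of regions at 10 to 100 kb did. Only 34 members (0.877%) had their centre in an exon of a protein-coding transcript. A start site of some other GENCODE transcript, noncoding or unproductive, lay within 1 kb of 80 members, and 2018 members were over 100 kb from the start site of any transcript. Members inside genes lacked a Sox2-EGFP- peak in 81.7% of cases and those outside in 77.0%. The median distance to a start site was 177 kb (quartiles 129 and 273 kb). The farthest member, chr1:104066750-104068121 between Cntnap5b and Cdh20, was 2398 kb away and had a peak in all 6 Sox2-EGFP+ and no Sox2-EGFP- lists. Members were 244 to 3849 bp wide with a median of 673 bp, and the nearer regions had a median of 637 bp.

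Start sites of protein-coding transcripts leave 894.8 Mb of known autosomal sequence that is over 100 kb from any of them, spread over 2405 intervals between neighbouring sites. Members were found in 1316 of these intervals (54.7%) at 4.33 per Mb in all, and 1089 intervals with 241.9 Mb held none. The 240 intervals with 5 or more members held 1838 members, 47.4% of all, in 19.3% of the sequence. The 10 intervals that held the most had 180 members, 4.64% of all, in 0.995% of the sequence. Both sets of intervals were picked by their own member counts, so a high share of members follows from the choice.

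The longest intervals were the poorest in members. An interval between start sites can hold the body of a long gene, so it is not the same as a gene desert. Density in sequence without genes was not measured. Intervals of 1 Mb or more made up 52.6% of the sequence and held 25.9% of the members, 2.13 per Mb against 6.78 per Mb in shorter intervals. Intervals of 2 Mb or more had 0.970 per Mb, and 25 of those 90 had no member. This was seen at equal distance from a start site: between 100 and 200 kb away the density was 9.33 members per Mb in intervals of 0.2 to 0.5 Mb, 5.76 in those of 0.5 to 1 Mb, 4.63 in those of 1 to 2 Mb and 2.20 in longer ones. The 3 empty intervals with the most sequence were Cdh6 to Cdh9 (3.40 Mb), Ncam2 to Mrpl39 (3.10 Mb) and Cdh2 to Dsc3 (2.99 Mb), singled out after their values were seen. Sequence over 100 kb from a start site had 41.3% GC in the intervals with 5 or more members and 38.7% in the empty ones, and the part of base composition in the density was not tested.

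**Figure D2:**
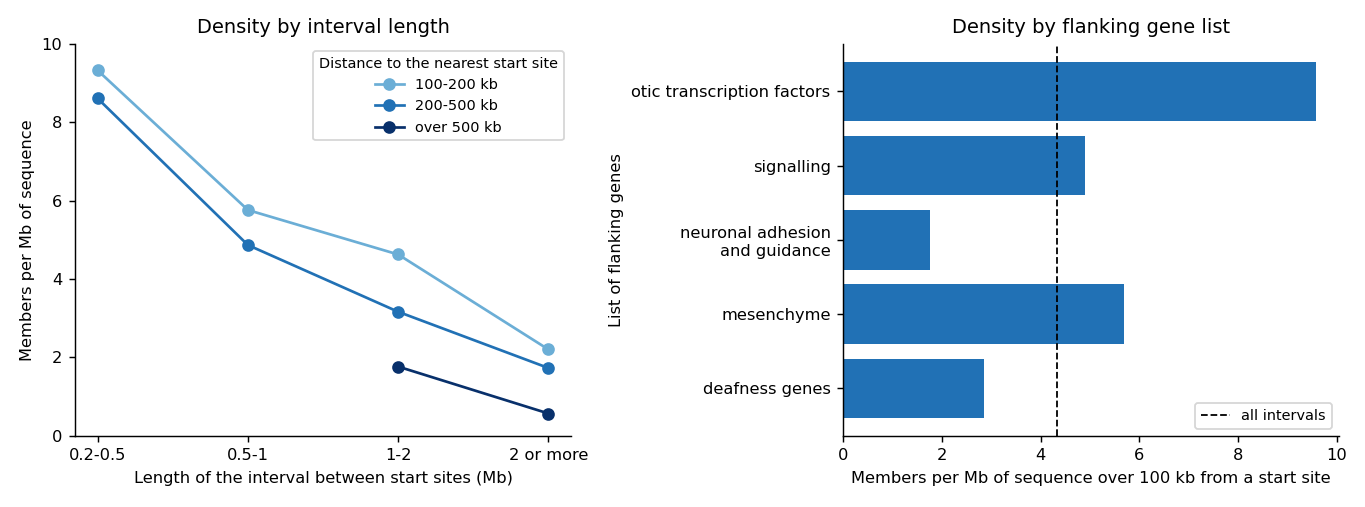
Left, members per Mb of sequence against the length of the interval between neighbouring start sites (Mb), in lines for 3 classes of distance from the nearest site; every line falls to the right. Right, members per Mb of the sequence over 100 kb from a start site in intervals flanked by a gene of each list, with the value over all intervals, 4.33, as a dashed line; the list of otic transcription factors stands at 9.56 and that of neuronal adhesion at 1.75. Interval length was not matched between the lists.

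The spacing between members is described next. The same measures are not given for other regions, so they do not show a clustering particular to members. The nearest other member was 36.9 kb away at the median, and 2221 members (57.3%) had another within 50 kb. Chains of members with gaps of at most 50 kb held up to 12 members, and 70 chains of 5 or more held 447 members, while 1655 members stood alone. Chains of 12 were found between Rad51l1 and Zfp36l1, Sox9 and Slc39a11, Igfbp3 and Tns3, Bcl2l11 and Gm355, and Tead1 and Arntl, over 164 to 198 kb. Of the members in chains of 5 or more 72.7% lacked a Sox2-EGFP- peak, compared with 81.5% of those alone. The share with a neighbour depends on how many members are counted, and it was 35.3% without E14.5 replicate 1, 35.6% without E16 replicate 2 and 38.6% without E16 replicate 1.

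The interval with the most members was that between Rad51l1, a recombination gene, and Zfp36l1, which encodes an RNA-binding protein of mRNA decay, on chr12:80414994-81213985. It held 22 members in 0.599 Mb of sequence, 36.7 per Mb, of which 10 lay inside Rad51l1 and 16 lacked a Sox2-EGFP- peak. All 22 were in both long lists, 21 in E16 replicate 1, 13 in E14.5 replicate 2, and 8 and 2 in the E12 lists. The second, chr5:119010728-120120678, runs from Med13l, a Mediator subunit, to Tbx3, a T-box factor of limb and otic development, and held 21 members at 23.1 per Mb, 17 of them without a Sox2-EGFP- peak.

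The third ended at Cadm1, a cell adhesion molecule, and had 20 members, 13 without a Sox2-EGFP- peak and 3 with a peak at E12. The fourth was within Slit3, a ligand of Robo receptors in cell guidance, where all 17 members lay inside the gene at 37.9 per Mb and 15 lacked a Sox2-EGFP- peak. Intervals with 17 members also flanked Sall3 (Sall3 to Galr1, 15 without a Sox2-EGFP- peak), Zfp608 (Zfp608 to Gramd3, 10) and Tns3, a focal adhesion protein (Igfbp3 to Tns3, 13). Those of Sox6 (Gm6816 to Sox6) and of Zmiz1, a transcriptional coregulator (Rps24 to Zmiz1), held 16 each, 12 and 11 without a Sox2-EGFP- peak. The Zmiz1 interval had 9 members with an E12 peak and 3 with a peak in all 6 lists, while 7 of the other intervals had 0 or 1 in all 6.

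**Figure D3:**
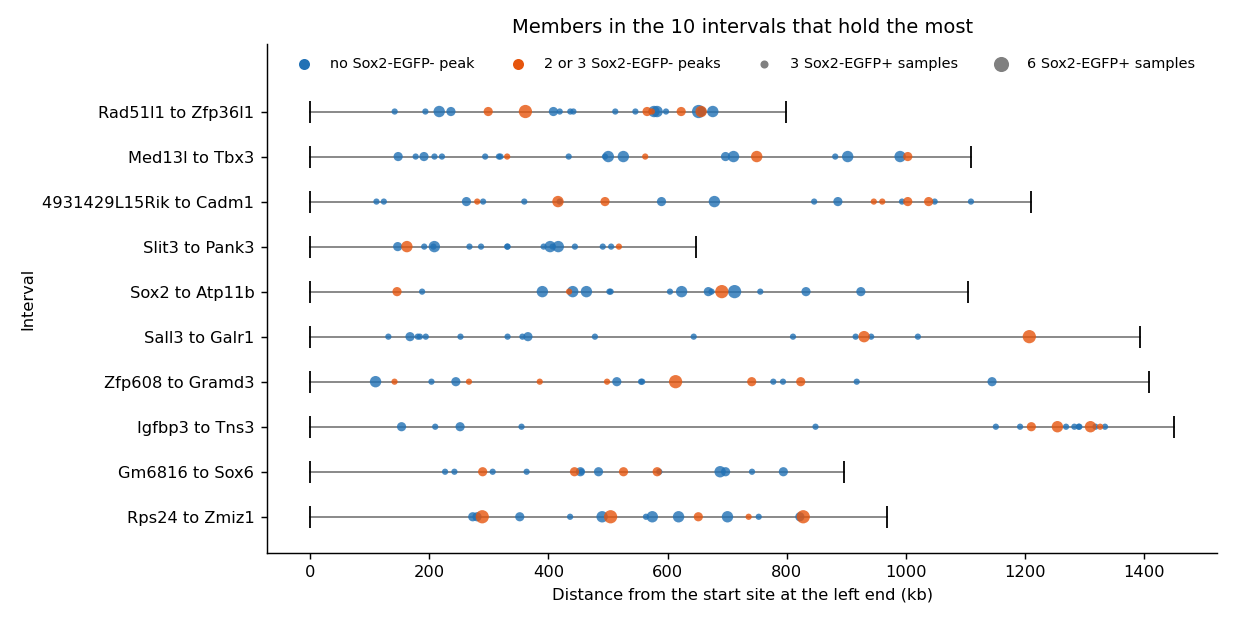
Members in the 10 intervals that hold the most, each drawn to scale by the distance (kb) from the start site at its left end, with black ticks at the start sites. Point size gives the number of Sox2-EGFP+ samples with a peak (3 to 6), blue points have no Sox2-EGFP- peak and orange points have 2 or 3; in the Sox2 interval 14 of 17 points are blue.

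The desert between Sox2 and Atp11b, chr3:34549058-35653056, is of interest because Sox2 carries the reporter by which the cells were sorted. It held 17 members in 0.904 Mb, 18.8 per Mb, none of them inside a gene, and 14 lacked a Sox2-EGFP- peak. The 2 with a peak in all 6 Sox2-EGFP+ lists lay 691 and 712 kb from the Sox2 start site. The start sites of the interval are 1104 kb apart. Both of these members, like every member at 604 kb or beyond, were thus nearer to Atp11b than to Sox2. The member at 691 kb, chr3:35239453-35240698, was also present in all 3 Sox2-EGFP- lists. The one at 712 kb, chr3:35260716-35262378, was in none of them, and its fold enrichment was 10.6 and 4.59 at E12, 8.82 and 6.44 at E14.5 and 9.21 and 6.67 at E16. Members at 390, 441, 464 and 624 kb were present in 5 Sox2-EGFP+ lists, each missing E12 replicate 2, and in no Sox2-EGFP- list. The member nearest to Sox2, at 146 kb, was in all 3 Sox2-EGFP- lists. With the interval on its other side, Sox2 flanked 21 members, 18 of them without a Sox2-EGFP- peak.

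A dense run of members lay beyond Lmx1a. Within 66.4 kb, chr1:169802245-169868656, stood 8 members at 183 to 248 kb from the start site at the left end of the interval, and none of the 8 had a Sox2-EGFP- peak. All 8 were in both long lists and in E16 replicate 1. The member at 189 kb, printed above, was in all 6 Sox2-EGFP+ lists, those at 199 and 215 kb in 5, the one at 183 kb in 4, and the other 4 in 3.

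Intervals flanked by genes of 5 lists were compared with all intervals by count. Of 60 otic and prosensory transcription factors on autosomes 38 flank sequence over 100 kb from a start site. Their 51 intervals held 227 members, 5.86% of all, in 2.65% of the sequence, or 9.56 per Mb against 4.33 over all intervals, with a median of 11.6 per Mb per interval against 1.54. Of these members 84.1% lacked a Sox2-EGFP- peak. Beside Sox2 and Tbx3 with 21 members each, the genes that flanked the most were Irx3, an Iroquois homeodomain factor (16 members in 0.566 Mb, all 16 without a Sox2-EGFP- peak), Sox9 (16, of which 13), Ebf1 (13, of which 13), Id2, an inhibitor of bHLH factors (13, of which 13), Tead1, the DNA-binding partner of Yap (12 in 0.248 Mb, of which 10), Nfib and Zeb2 (12 each) and Eya1, a transcriptional cofactor (11, of which 8). Hes1, Dlx6 and Spry2 flanked such sequence and had no member.

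Genes of signalling pathways flanked 118 members at 4.89 per Mb. Epha4, an ephrin receptor, had 14, Jag1, a Notch ligand of prosensory cells, had 10, of which 9 without a Sox2-EGFP- peak, and Fgfr2 had 8, of which 4. The 64 neuronal adhesion and guidance genes flank 15.01% of the sequence and had 235 members, 6.06% of all, at 1.75 per Mb. That list also holds Sox5, a transcription factor, with 11 members, and without it there were 224 members at 1.68 per Mb. The first were Slit3 (17) and Pcdh17 (15), while 9 genes of the list, among them the cadherin genes Cdh6, Cdh7, Cdh8, Cdh9 and Cdh10, had none. The intervals of this list were long, with 134.4 Mb in 133 intervals against 894.8 Mb in 2405 intervals in all. Intervals of 1 Mb or more held 2.13 members per Mb over all genes. The part of interval length in the density of a list was not tested. Mesenchymal and neural crest factors had 65 members at 5.68 per Mb, led by Ets1, Foxc2 and Runx1 with 9 each. Genes of hereditary deafness had 14 members at 2.86 per Mb, 4 of them by Eya4. The lists were chosen with earlier results of these data known, a flanking gene need not be the gene a region acts on, and nothing here is a test of a list.

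Among 52 autosomal elements with reported or candidate otic activity in the study's list, 3 overlapped a member. The list includes promoters, which the distance rule keeps apart from members. The count is thus not a measure of how many listed elements were accessible. The member in Klhl29, chr12:5274617-5275579, had a peak in 5 Sox2-EGFP+ and no Sox2-EGFP- lists. The one in Slc25a13, chr6:6008470-6008977, between the start sites of Dync1i1 and Slc25a13, had a peak in all 6 Sox2-EGFP+ lists, with fold enrichments of 5.06 to 9.63, and in no Sox2-EGFP- list. The one in Auts2, chr5:132705289-132706345, had a peak in all 9. None of the 3 windows matched any of the 13 motifs.

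Sequence motifs were searched in 300 bp around a summit, on both strands, and matches of different motifs may overlap. The letters were GNAANNTGA for SIX-type, CATTGTT for SOX, AGATAAG for GATA factors, CATTCCA for TEAD, TCCCNNGGGA for EBF, GTTGCCA for RFX, TGTTTAC for FOX, TGANTCA for AP1, ATGCAAAT for POU, CTTTGAT for LEF, AACCNGTT for GRHL and CCGGAAG for ETS, while CTCF was searched by its 20-letter consensus with up to 3 mismatches. A match says that these letters are present and not that a factor was bound.

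SIX-type letters were found in 1051 members (27.1%), in 22.4% of regions 10 to 100 kb from a start site and in 19.1% of 7595 windows placed 5 kb to each side of the members outside any region. SOX letters were in 9.37% of members, 7.41% of the nearer regions and 5.87% of the windows to each side, and GATA letters in 5.75, 4.64 and 4.34%. CTCF letters were the most concentrated against the neighbouring sequence, in 1.88% of members and 0.0790% of the side windows, but they were in 2.69% of the nearer regions. TEAD (6.94 against 4.73% in the side windows), EBF (2.37 against 0.566%), RFX (5.80 against 3.13%), GRHL (3.51 against 2.19%), ETS (1.86 against 0.908%) and AP1 (10.2 against 9.03%) were also more frequent in members, while FOX (4.15 against 4.52%), POU (2.22 against 2.59%) and LEF (5.62 against 5.96%) were not. The members had 50.3% GC and the side windows 42.9%, which sets how often letters occur by base composition alone, and its part was not tested.

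At least 1 of SIX-type, SOX and GATA was matched in 1454 members (37.5%), all 3 in 4 members, and 1532 members (39.5%) matched none of the 13. Among members without a Sox2-EGFP- peak 28.3% held SIX-type, 10.3% SOX, 6.68% GATA and 3.91% GRHL letters. Among those with one the shares were 22.8, 6.10, 2.39 and 2.03%. ETS letters went the other way, 1.45 against 3.35%, as did CTCF letters, 1.68 against 2.63%. The mean GC content was 49.2% in the former and 54.4% in the latter. SIX-type letters were in 27.2, 28.6, 31.5 and 35.4% of the members without a Sox2-EGFP- peak that had 3, 4, 5 and 6 Sox2-EGFP+ samples, and in 23.4, 21.2, 20 and 31.4% of those with one. Among members with all 6 Sox2-EGFP+ samples GATA letters were in 7.96% without and 8.57% with a Sox2-EGFP- peak, so the order seen over all members was turned there, on 113 and 70 members.

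The matches were also placed relative to the summit. In members without a Sox2-EGFP- peak SOX letters occurred 0.490 times per kb within 50 bp of the summit and 0.185 times beyond 300 bp, a ratio of 2.64, and in members with one the ratio was 1.5 on 18 matches near the summit. GATA letters had a ratio of 2.09 in the former and of 0.414 in the latter, there on 4 matches, and SIX-type letters 1.35 and 0.956. CTCF letters lay at the summit in both classes, with 43 of the matches within 50 bp and 2 beyond 300 bp in the former, and 15 and 1 in the latter. EBF letters were also central in both, with ratios of 4.38 and 3.33.

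**Figure D4:**
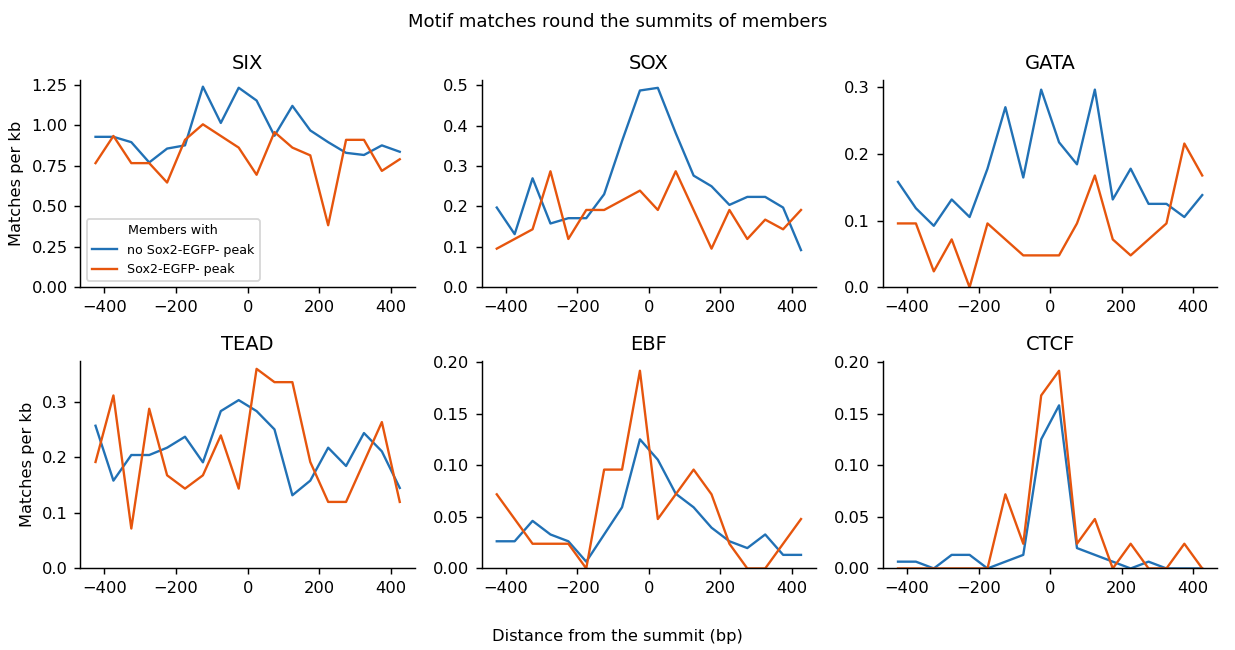
Matches per kb of sequence against the distance (bp) from the summit in bins of 50 bp, for members without (blue) and with (orange) a Sox2-EGFP- peak. The SOX line of members without a Sox2-EGFP- peak reaches 0.490 per kb within 50 bp of the summit, while CTCF rises at the summit in both classes.

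The cell types were compared by the share of far peaks with a match in each list, 6 Sox2-EGFP+ against 3 Sox2-EGFP-, by two-sided exact permutation of the 84 splits, with p-values adjusted by Benjamini-Hochberg over the 13 motifs. The share differed for 8 motifs, 4 higher and 4 lower in Sox2-EGFP+ cells, and 9 had an unadjusted p under 0.05. GATA letters were in 5.60 and 8.74% of far peaks at E12, 7.01 and 5.04% at E14.5 and 4.54 and 6.82% at E16, and in 2.55, 1.66 and 1.87% in the Sox2-EGFP- lists. The groups differed by 4.26 percentage points (exact permutation adjusted p = 0.0258). SOX letters were in 8.68 to 10.1% of far peaks in Sox2-EGFP+ lists and in 4.21 to 5.04% in Sox2-EGFP- lists, a difference of 4.79 percentage points (exact permutation adjusted p = 0.0258). SIX-type letters were in 24.4 to 33.7 and 20.7 to 21.9% (difference 6.59 percentage points, exact permutation adjusted p = 0.0387), a call that did not hold with the replicate number as a block (exact permutation adjusted p = 0.0813). It was also lost on leaving out any Sox2-EGFP+ list other than E12 replicate 2 (exact permutation adjusted p = 0.0516 to 0.0774), with differences of 6.35 to 7.28 percentage points. GRHL letters were in 2.80 to 4.13 and 1.39 to 1.56% (difference 1.89 percentage points, exact permutation adjusted p = 0.0258).

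Lower in Sox2-EGFP+ far peaks were FOX (3.97 ± 0.787 against 6.36 ± 0.474%, SD), POU (2.31 ± 0.502 against 4.42 ± 0.187%), TEAD (7.25 ± 0.331 against 8.37 ± 0.532%) and ETS letters (1.67 ± 0.376 against 2.49 ± 0.140%). The exact permutation adjusted p was 0.0258 for the first 3 and 0.0387 for ETS. The ETS call was lost on leaving out any 1 Sox2-EGFP+ list (exact permutation adjusted p = 0.0516 to 0.0663). With the 200 highest far peaks of each list none of these motifs passed (exact permutation adjusted p = 0.124 to 0.798). With all GENCODE start sites POU, TEAD and ETS did not pass (exact permutation adjusted p = 0.0516 to 0.702). TEAD was also lost at a −log10 q of at least 5 (exact permutation adjusted p = 0.206). LEF letters (5.62 ± 0.731 against 6.94 ± 0.452%) had an adjusted exact permutation p of 0.0516, and EBF, RFX, AP1 and CTCF did not pass. E12 has no Sox2-EGFP- sample, and without E12 no motif passed (smallest exact adjusted p = 0.0531 with 35 splits). The differences without E12 were 3.82 percentage points for GATA, 4.67 for SOX, 5.52 for SIX-type and 1.84 for GRHL. Within batch 2 they were 4.43, 5.12, 7.25 and 1.91 percentage points, with −2.13 for FOX, −2.08 for POU, −1.01 for TEAD and −0.817 for ETS, and the smallest exact permutation adjusted p over the 21 splits was 0.0774. Leaving out any 1 of the 3 Sox2-EGFP- lists also left no motif past the threshold (smallest exact permutation adjusted p = 0.0663), in a design of 28 splits whose smallest unadjusted p is 0.0357. The differences were then 4.54 to 4.96 percentage points for SOX, 4.08 to 4.52 for GATA, 6.31 to 6.89 for SIX-type and 1.85 to 1.94 for GRHL letters. The mean GC content of far peaks was 48.1 to 52.1% in Sox2-EGFP+ and 50.7 to 51.2% in Sox2-EGFP- lists, so the lists overlapped in base composition.

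**Figure D5:**
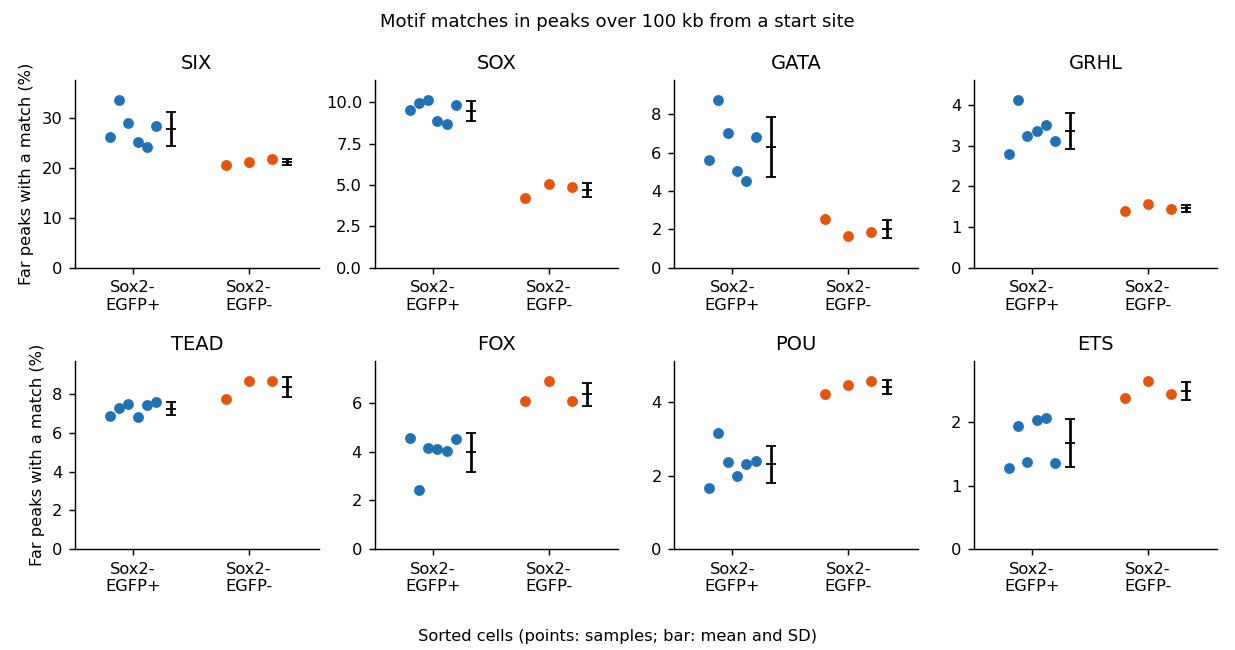
Share of far peaks (%) with a match of each of the 8 motifs that differed, in each sample (points), with the mean and SD beside them, for Sox2-EGFP+ (blue, 6 samples) and Sox2-EGFP- (orange, 3 samples) lists. The groups do not overlap in any of the 8 panels, which follows largely from choosing these motifs by the same comparison. Among the motifs not drawn, the groups were also separate for LEF and overlapped for EBF, RFX, AP1 and CTCF.

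Far and nearer peaks of the same Sox2-EGFP+ list were compared last. The GC content of far peaks was lower in 6 of 6 lists, with differences of −4.36 to −2.32 percentage points (mean −3.02 ± 0.728, SD, n = 6, exact sign-flip permutation p = 0.031). No motif passed after adjustment over 13 motifs (smallest exact adjusted p = 0.0508), while 8 had an unadjusted p of 0.031, the smallest that 6 lists allow. In 6 of 6 lists SIX-type letters were more frequent in far peaks (mean difference 5.12 percentage points), as were SOX (1.75), LEF (1.25), GATA (1.03) and POU letters (0.593), and ETS (−1.49), RFX (−0.697) and CTCF letters (−0.576) were less frequent. The SIX-type mean was raised by E12 replicate 2 with 11.6 percentage points, and the other 5 lists gave 3.45 to 4.54.

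Far Sox2-EGFP+ peaks without a Sox2-EGFP- peak were also compared with those that overlapped one, a comparison chosen after the data were seen. In 6 of 6 lists SIX-type (29.3 against 22.3%), SOX (10.7 against 4.97%), GATA (7.12 against 2.84%) and LEF letters (6.18 against 3.87%) were more frequent in the former and POU (2.13 against 3.00%) and ETS letters (1.303 against 3.22%) less frequent. The LEF difference was 5.73 and 6.13 percentage points in the E12 lists and 0.259 to 0.850 in the other 4. None of the 13 motifs passed adjustment (exact sign-flip permutation, smallest adjusted p = 0.0677, 6 with an unadjusted p of 0.031). The GC content was 49.0% in the former and 55.2% in the latter, lower in 6 of 6 lists, and its part in the motif shares was not tested.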

How the data were processed

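ATAC-seq peaks of 6 Sox2-EGFP+ and 3 Sox2-EGFP- samples were analysed. Per the study's methods and the submitters' processing notes, adapters were clipped with Trim Galore, alignment to build mm9 was by Bowtie2, Picard and SAMtools served for duplicates and filtering, and MACS2 gave the peaks of each sample. The authors then dropped blacklisted peaks and kept those found in more than 1 sample of a cell type. Bedtools is also named, and versions are not given in the sources used here. The deposited peak lists give a score, a fold enrichment, −log10 p and −log10 q values and a summit position for each peak. No reads and no read totals were used, and Wilson intervals cover counting only.

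Peaks were merged at 100 bp on autosomes, and a region was present in a sample whose peak overlapped it by 1 bp. Distances were taken to start sites of 49470 protein-coding transcripts of GENCODE vM1 (NCBIM37, mm9). Start sites set the intervals, and members within 50 kb were linked into chains. Motifs were matched in 300 bp around a summit. Repeated 32-base words were counted over the assembly on both strands. Groups were compared over samples by exact permutation and paired shares by exact sign-flip permutation, with a threshold of 0.05 after Benjamini-Hochberg adjustment over 13 motifs. Scripts were tested on simulated data.

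Members, lists and motifs were chosen with earlier results of these data known. The text names the 10 intervals with the most members, the 6 best ranked members with all Sox2-EGFP+ and no Sox2-EGFP- peaks, the 4 of those with peaks in all 9 lists that ranked best over the Sox2-EGFP+ lists, members on the study's otic elements, and listed genes by count. Some items that this rule names are not reported here. Replicates were pools of litters. The study describes E16 Sox2-EGFP- cells as collected in parallel with Sox2-EGFP+ cells, each E16 pair with 1 number shares a sequencing batch, and the deviations of the E16 groups over 13 motifs had a correlation of 0.485, so the replicate number was used as a block in an alternative. That block covered all 9 samples. Samples of different stages with 1 number are not known to be paired, and replicate 1 mixes both batches. The smallest unadjusted exact permutation p of the block is 0.025, over 40 permutations. Alternatives changed the merging, overlap, q limit, start sites, distance limit, sample limit, linking distance, window, height matching, samples, batch and replicate block. Python 3.11.15, NumPy 2.4.6, pandas 2.3.3, SciPy 1.17.1, matplotlib 3.10.9, pysam 0.24.0, bedtools 2.31.1 and samtools 1.23.1 were used.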

Additional observations from a re-analysis of the deposited data

Results flagged for a closer look

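In 44 groups of 6 Sox2-EGFP+ samples, 4 had a sample far from the others by Dixon's criterion, which chance passes in about 1 of 20 groups. All 4 were E12 samples, the shortest lists. The far minus nearer difference of SIX-type letters was 11.6 percentage points in E12 replicate 2, and that of TEAD letters was −0.119 percentage points in E12 replicate 1. In E12 replicate 2 the share of far peaks with FOX letters was 2.43%, and the TEAD difference between far peaks not shared and shared with Sox2-EGFP- cells was −4.66 percentage points.

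The far minus nearer difference itself was compared between Sox2-EGFP+ and Sox2-EGFP- lists for 13 motifs and for GC content, 14 tests in all, and 4 passed (exact permutation adjusted p = 0.0417 for each). For SOX letters it was 1.75 percentage points in Sox2-EGFP+ and 0.704 in Sox2-EGFP- lists, a difference of 1.05. For CTCF letters it was −0.576 and −0.948, a difference of 0.372. For TEAD letters it was 0.761 and 1.53, a difference of −0.771, and for POU letters 0.593 and 1.59, a difference of −1.001. All 4 had an unadjusted exact permutation p of 0.0119, the smallest that 84 splits allow. Without 1 Sox2-EGFP- list the smallest possible is 0.0357, and results with samples left out are not given for these tests. The Sox2-EGFP+ means include E12, which has no Sox2-EGFP- sample.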

How the results depend on the processing

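The number of members moved to 2018 with start sites of all GENCODE transcripts, 7410 over 50 kb, 1609 over 200 kb, 10517 with 2 or more Sox2-EGFP+ samples and 1636 with 4 or more, and ran from 1634 to 3823 with a sample left out. Members free of Sox2-EGFP- peaks then made up 80.0, 76.1, 80.9, 89.2 and 72.2% (72.2 to 78.5% with a sample left out), and 76.2% at a −log10 q of at least 5. The share within 50 kb of another member was 52.9, 62.3, 49.3, 78.2 and 35.3% (35.3 to 57.1%), 48.7% at that q, and 40.4 or 70.8% with links of 25 or 100 kb.

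The sharing difference ran from −11.8 to −8.40 percentage points with a sample left out and was −11.6 in batch 2. The GC difference ran from −3.15 to −2.75 and was −3.15 in batch 2. With 5 lists the smallest sign-flip p is 0.0625. The count of motifs that differed between the cell types was 4 with the 200 highest far peaks of each list, 4 with all GENCODE start sites, 0 without E12, 0 in batch 2 and 0 to 7 with a sample left out. The replicate block gave 7 calls, with SIX-type alone lost (exact permutation adjusted p = 0.0813).

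Reversals touched motifs that did not pass. EBF between cell types was −0.0511 with 200 bp to each side, −0.251 with all start sites, −0.0488 in batch 2 and −0.109 to 0.198 with a sample left out. CTCF was −0.177 in batch 2 and −0.211 to 0.227 with a sample left out. AP1, far minus nearer, was −0.338 against 50 to 100 kb, and GRHL ran from −0.0525 (without E12 replicate 2) to 0.379 with a sample left out. TEAD, not shared minus shared, was 0.393 at the stricter q, 0.237 with 200 bp and −0.721 to 0.340 (without E12 replicate 2) with a sample left out. The causes were not tested.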
